A study of Homo sapiens with 4 samples.

Results

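The genes described here are 39 genes of the ATF4 response and the unfolded protein response, chosen by name as known members of these pathways, with no threshold on their values, out of 19740 genes that could be named on the array through RefSeq accessions. Their RNA was measured in Hs746T cells, an established human gastric carcinoma cell line that carries both a splicing mutation and an amplification of the receptor tyrosine kinase gene MET. There were 4 single-colour Agilent human 44K (V2) expression arrays, 1 per condition: cells given the solvent DMSO, cells given the MET inhibitor PHA665752, cells transfected with a scrambled (sc) siRNA, and cells transfected with a MET siRNA. The transfected cells were harvested 48 h after transfection, while the dose and time of PHA665752 were not given for the array. The 3 pairs set side by side were PHA665752 over DMSO (the inhibitor pair), MET siRNA over sc siRNA (the knockdown pair) and, to see how far the control cultures lay apart, sc siRNA over DMSO (the control pair). With 1 array per condition there was no replicate error and no test, so every ratio below compares 2 arrays and not populations of cultures, and precision is limited by how few arrays there were.

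ATF4 is a transcription factor whose translation increases when kinases of the integrated stress response phosphorylate the initiation factor eIF2, for instance on amino acid shortage (GCN2) or on accumulation of unfolded protein in the endoplasmic reticulum (PERK). With C/EBP partners it binds C/EBP-ATF response elements (CARE) and turns on genes for amino acid synthesis, amino acid import and tRNA charging, together with CHOP (DDIT3), which further acts on targets such as TRIB3 and CHAC1. The other arms of the unfolded protein response, ATF6 and IRE1 with XBP1, act through ER stress elements (ERSE) on chaperones and degradation factors of the endoplasmic reticulum. The 39 genes were therefore read as 8 regulators, an amino acid branch of 18 genes (9 of synthesis, 5 of transport, 4 tRNA synthetases), 6 other ATF4 targets and an ER chaperone branch of 7 genes.

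Promoter letters are shown for genes of both branches and of the regulators whose values are set against each other below. RefSeq promoter windows of GRCh38.p14, running from 250 bases before to 50 bases after an annotated start, were found for 33 of the 39 genes, 50 windows in all. The letters searched on both strands were TGATGNAAN (CARE core), TGATGCAAT (a stricter CARE that is contained in the core), CCAAT and CCACG with 9 bases of any kind between them (ERSE), and ATTGG and CCACG with 1 base between them (ERSE-II). The CARE core was present in 9 of the 50 windows (18.0%) and in 3.61% of all 35116 windows of the same length, and the stricter form in 0 of the 50 and 0.236% of all. The CARE windows belonged to ATF3, CEBPG, ASNS, SLC7A1, SLC3A2, AARS, GARS, CHAC1 and HERPUD1. ERSE letters were found in the windows of HSPA5, HSP90B1 and XBP1, against 0.0769% of all windows, and ERSE-II letters in those of HERPUD1 and SDF2L1, against 0.0541% of all. The genes with ERSE or ERSE-II letters were all of the ER chaperone branch, in 9 windows. The CARE core was in 1 of those 9 windows (11.1%) and in 8 of the 41 other member windows (19.5%), while only this branch held ERSE or ERSE-II letters. The genes were chosen by name as known members of these pathways, so these shares describe the choice of genes and test nothing. The map of motif letters shows that HERPUD1 held a CARE core and an ERSE-II. These are matches of letters in a window and not binding sites. The 250 bases before the start are given 5′ to 3′ in the direction of the gene, with matched letters in capitals, for CHAC1 (chr15:40953221-40953470, plus strand), ASNS (chr7:97872409-97872658, minus strand) and ATF3 (chr1:212565157-212565406, plus strand) of the ATF4 arm, and for HERPUD1 (chr16:56931892-56932141, plus strand), HSPA5 (chr9:125241344-125241593, minus strand) and SDF2L1 (chr22:21642052-21642301, plus strand) of the ER chaperone branch.
CHAC1: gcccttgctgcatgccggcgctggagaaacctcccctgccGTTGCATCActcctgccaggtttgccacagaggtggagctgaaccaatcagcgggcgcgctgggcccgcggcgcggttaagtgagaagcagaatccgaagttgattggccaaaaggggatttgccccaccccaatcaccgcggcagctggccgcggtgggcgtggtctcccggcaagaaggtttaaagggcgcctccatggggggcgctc
ASNS: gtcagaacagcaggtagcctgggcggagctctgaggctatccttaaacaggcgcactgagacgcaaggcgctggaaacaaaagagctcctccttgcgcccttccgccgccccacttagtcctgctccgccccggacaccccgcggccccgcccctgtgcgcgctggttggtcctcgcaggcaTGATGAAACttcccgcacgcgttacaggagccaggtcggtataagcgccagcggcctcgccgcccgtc
ATF3: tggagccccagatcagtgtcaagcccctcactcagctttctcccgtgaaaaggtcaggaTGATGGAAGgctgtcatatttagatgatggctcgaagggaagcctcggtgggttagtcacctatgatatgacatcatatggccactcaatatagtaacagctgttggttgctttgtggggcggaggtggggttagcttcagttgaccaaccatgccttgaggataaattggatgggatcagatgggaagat
HERPUD1: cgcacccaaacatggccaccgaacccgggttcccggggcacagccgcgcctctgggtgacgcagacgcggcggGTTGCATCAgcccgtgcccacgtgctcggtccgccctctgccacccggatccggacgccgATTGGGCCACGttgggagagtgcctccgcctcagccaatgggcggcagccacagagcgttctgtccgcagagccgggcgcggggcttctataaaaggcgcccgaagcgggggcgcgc
HSPA5: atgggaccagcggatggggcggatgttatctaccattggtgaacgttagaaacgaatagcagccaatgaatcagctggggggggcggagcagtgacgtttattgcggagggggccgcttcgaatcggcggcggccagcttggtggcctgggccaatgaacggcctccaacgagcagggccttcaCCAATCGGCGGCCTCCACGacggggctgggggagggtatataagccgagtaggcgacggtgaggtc
SDF2L1: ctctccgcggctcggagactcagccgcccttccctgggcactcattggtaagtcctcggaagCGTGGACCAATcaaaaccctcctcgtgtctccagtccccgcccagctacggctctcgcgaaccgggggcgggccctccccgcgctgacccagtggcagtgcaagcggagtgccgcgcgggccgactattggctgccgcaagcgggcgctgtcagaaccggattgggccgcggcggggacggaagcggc

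**Figure D1:**
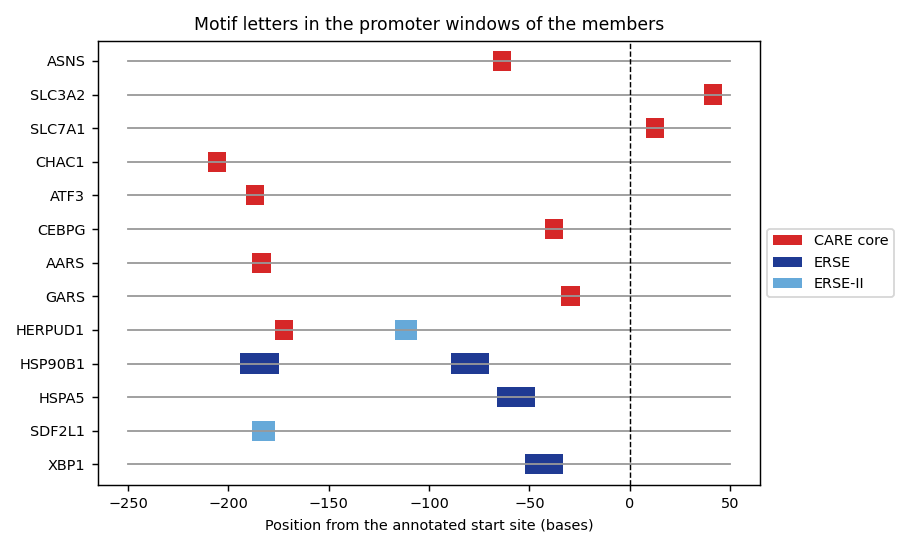
Position of motif letters (horizontal axis, bases from the annotated start site, shown by the dashed line) in the promoter windows of the 13 members that hold any; red is the CARE core, dark blue ERSE and light blue ERSE-II. ERSE and ERSE-II letters appear only in the windows of HERPUD1, HSP90B1, HSPA5, SDF2L1 and XBP1.

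Signals are given as the processed signal scaled so that the 75th percentile of each array is 1000, and ratios as log2 of scaled signals. MET itself had scaled signals of 223677 under DMSO, 117741 under PHA665752, 228710 after sc siRNA and 90720 after MET siRNA, so the label of the knockdown array was borne out with a log2 ratio of -1.33. The share of probes well above background lay between 67.4% and 68.2% on 3 arrays and was 61.1% on the MET siRNA array, where 5.58% of spots were left out as outliers against 1.69% to 2.21% on the others. The lowest scaled signal well above background was between 10.95 and 20.3. Of the labelled origin's markers, the keratin gene KRT18 (23257 to 33968) and EPCAM (2183 to 3174) were well above background on every array. The epithelial cadherin CDH1 was near background (12.2 to 35.3, not well above it on the MET siRNA array). Of the gastric mucosa genes, GKN1 was not well above background on any array. TFF1 (70.5 to 90.6), TFF2 (50.1 to 63.0) and the brighter MUC6 probe (160 to 175) were low but well above it on every array. The brighter PGC probe (18.1 to 37.0) was well above it on all but the MET siRNA array. CLDN18 was well above it only after MET siRNA (73.0) and had no usable spot under DMSO. The mesenchymal genes CDH2 (4140 to 4948), ZEB1 (1697 to 2818), FN1 (927 to 4175) and SPARC (2432 to 7685) were well above background on every array. VIM, also mesenchymal, read 294772 under DMSO and 324337 under PHA665752 and had no usable spot on the siRNA arrays. Of the leukocyte genes, CD3E was not well above background on any array, whereas CD14 (133 to 147) and 1 of 4 PTPRC probes (27.3 to 38.2) were low but well above it on all 4, and their part in the results was not tested. Probes of different genes differ in brightness for reasons of design, so levels are compared between arrays and not between genes. Between different probes of the same gene, the log2 ratio varied by a root mean square SD of 0.40 under PHA665752, 0.19 after MET siRNA and 0.24 in the control pair, which is the only measure of spread at hand here beyond the spots of a probe (median SD 0.053 to 0.059 in log2).

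All 39 genes had a probe (46 probes), 36 had a probe with a value on every array, and 34 were well above background on every array. Under PHA665752, 2 of 35 members with a ratio were at least 2-fold higher than under DMSO and 6 at least 2-fold lower, where 13.1% of all genes were higher and 8.04% lower. After MET siRNA, 5 of 34 members were at least 2-fold higher than after sc siRNA, where 2.04% of all genes were, and 0 were lower, where 0.696% of all genes were. In the control pair, 7 of 34 members were at least 2-fold higher after sc siRNA than under DMSO, where 2.89% of all genes were, and 0 were lower, where 1.16% were. The share of members that were higher was thus below the background under PHA665752 (5.71%) and above it after MET siRNA (14.7%) and in the control pair (20.6%). PHA665752 shares its DMSO array with the control pair, and MET siRNA shares its sc siRNA array with that pair. With scaling to the median of probes well above background, 2 members in place of 5 were at least 2-fold higher after MET siRNA, namely ATF3 and SLC6A9. That scaling moved the median of all genes by -0.30 in this pair, so the 2.04% is not the background share for this count. In these RNA extracts of whole cultures, fewer cells expressing a gene and less RNA per cell cannot be told apart. The plot of signals by array gives each member's values.

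**Figure D2:**
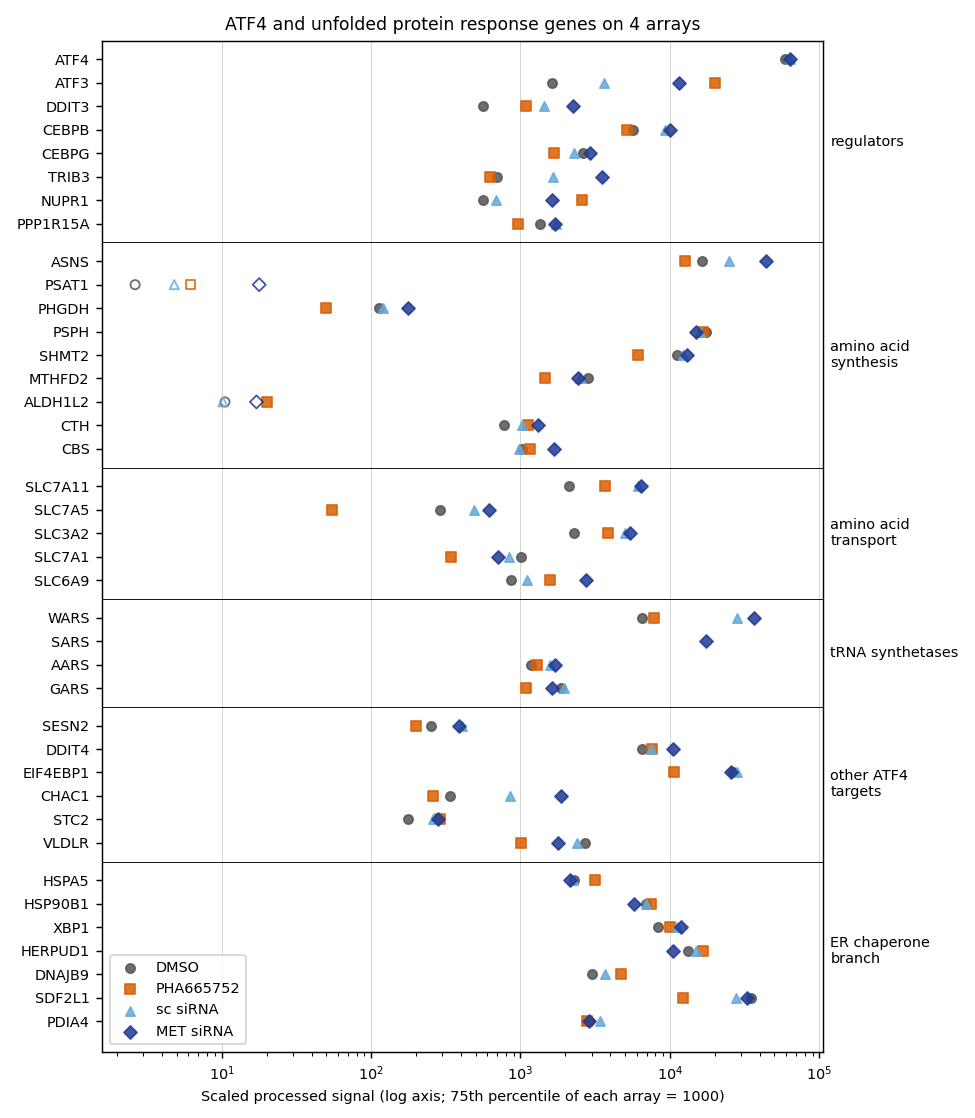
Scaled processed signal (horizontal log axis, 75th percentile of each array at 1000) of the 39 genes on the DMSO (circle), PHA665752 (square), sc siRNA (triangle) and MET siRNA (diamond) arrays, 1 array each, grouped by role; open symbols are not well above background and a missing symbol is a spot left out as an outlier. ATF3 and NUPR1 are highest under PHA665752, TRIB3 and CHAC1 after MET siRNA, and SLC7A5 and SLC7A1 are lowest under PHA665752.

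Among the regulators, the RNA of ATF4 itself was nearly level. The scaled signal of ATF4 (A_23_P120933) was 58989 under DMSO, 63344 after sc siRNA and 63961 after MET siRNA, and its spot on the PHA665752 array carried a background outlier mark. With that mark ignored its log2 ratio of PHA665752 over DMSO was -0.040, and its ratios in the other pairs, 0.014 and 0.10, were within the spread between probes. ATF4 is regulated mainly at translation, which these arrays do not measure.

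ATF3, a stress-induced transcription factor downstream of ATF4, had the highest ratio of the members in the inhibitor and knockdown pairs. Its brightest probe (A_23_P34915) read 1630 under DMSO, 19910 under PHA665752, 3620 after sc siRNA and 11515 after MET siRNA. ATF3 was therefore 12.2-fold higher under PHA665752 (log2 ratio 3.61, rank 13 of 14322 genes), 3.18-fold higher after MET siRNA (log2 ratio 1.67, rank 89 of 13647) and 2.22-fold higher in the control pair (log2 ratio 1.15). A second and a further probe gave like values, with log2 ratios of 3.66 and 2.88 under PHA665752 and 1.60 and 1.57 after MET siRNA, but another probe (A_33_P3214096), which read 133 to 157 on the 4 arrays, differed by no more than 0.25. Taking the median ratio over its probes, ATF3 was 0.98 in the control pair, just short of 2-fold.

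NUPR1, a small stress-induced chromatin protein, had the same order of arrays as ATF3. It read 563 under DMSO, 2593 under PHA665752, 686 after sc siRNA and 1634 after MET siRNA, so that it was higher with both ways of suppressing MET (4.61-fold and 2.38-fold) and little different in the control pair (0.29). ATF3 and NUPR1 were the only members at least 2-fold higher under PHA665752 (5.71% of those with a ratio), where 13.1% of all genes were. Both were at least 2-fold higher after MET siRNA, where 2.04% of all genes were. The share of all genes higher by that much in both pairs is not given here. With scaling to the median of probes well above background, which moved all genes by -0.30, the knockdown ratio of NUPR1 was 0.95.

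DDIT3, which encodes the pro-apoptotic factor CHOP, read 564 under DMSO, 1085 under PHA665752, 1433 after sc siRNA and 2246 after MET siRNA. The 3 log2 ratios were 0.94 under PHA665752, 0.65 after MET siRNA and 1.34 in the control pair, so DDIT3 was lowest under DMSO, and sc siRNA was itself above PHA665752. TRIB3, a pseudokinase induced by CHOP that dampens ATF4, followed DDIT3 only in the transfected cells. TRIB3 read 694 under DMSO, 627 under PHA665752, 1654 after sc siRNA and 3511 after MET siRNA, with log2 ratios of -0.15, 1.09 and 1.25 in the order inhibitor, knockdown and controls. Its difference under PHA665752 was smaller than the spread between probes, and its order over the arrays was that of CHAC1 below.

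The remaining regulators differed by less. CEBPB, a C/EBP partner, read 5682 under DMSO, 5190 under PHA665752, 9247 after sc siRNA and 9990 after MET siRNA, so that the transfected cells lay above the others (log2 ratio 0.70 in the control pair). CEBPG, the heterodimer partner of ATF4, read 2618, 1666, 2272 and 2933 in the same order of arrays, lower under PHA665752 (-0.65) and higher after MET siRNA (0.37). PPP1R15A, the GADD34 subunit that returns eIF2 to its active form, had log2 ratios of -0.49, -0.026 and 0.35 in the order inhibitor, knockdown and controls.

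In the serine and one-carbon part of the amino acid branch, PHGDH, SHMT2 and MTHFD2 were lower under PHA665752, and of these SHMT2 and MTHFD2 were nearly level after MET siRNA. PHGDH, the entry enzyme of serine synthesis, read 113 under DMSO, 50.3 under PHA665752, 120 after sc siRNA and 176 after MET siRNA, a log2 ratio of -1.17 with the inhibitor and 0.56 with the knockdown. PHGDH was dim, and with normexp background correction its inhibitor ratio was -0.64, short of 2-fold. SHMT2, the mitochondrial serine hydroxymethyltransferase, read 11188, 6152, 12261 and 12982 in the order DMSO, PHA665752, sc siRNA and MET siRNA, a log2 ratio of -0.86 with the inhibitor and 0.082 with the knockdown.

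MTHFD2, the next mitochondrial folate enzyme, was spotted 10 times, with SDs between spots of 0.081 to 0.12 in log2. It read 2808 under DMSO, 1449 under PHA665752, 2490 after sc siRNA and 2413 after MET siRNA. Its log2 ratio was -0.95 with the inhibitor (rank 1239 of 14322 genes from the lowest) and -0.045 with the knockdown. Only the inhibitor ratio exceeded the SDs between spots, which do not measure the error between arrays or cultures. The last enzyme of serine synthesis, PSPH, lay between 14846 and 17397 on all arrays. PSAT1, the aminotransferase between PHGDH and PSPH, was not well above background on any array (2.64 to 17.9) and gave no ratio. ALDH1L2, a mitochondrial folate enzyme, was well above background only under PHA665752 (20.2), which gave a bound of at least 1.84-fold higher than DMSO.

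ASNS, asparagine synthetase and a classical CARE target, read 16472 under DMSO, 12557 under PHA665752, 25018 after sc siRNA and 43664 after MET siRNA. Its log2 ratio was -0.39 under PHA665752, a value within the spread between probes, 0.80 after MET siRNA (rank 427 of 13647 genes from the highest) and 0.60 in the control pair. The transsulfuration enzymes CBS and CTH were level or higher. CBS read 1016, 1166, 975 and 1681 in the order DMSO, PHA665752, sc siRNA and MET siRNA, a log2 ratio of 0.79 with the knockdown against 0.20 with the inhibitor. CTH read 774, 1122, 1018 and 1309, with log2 ratios of 0.54 under PHA665752 and 0.36 after MET siRNA.

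The 5 amino acid transporters split, and the split ran through a single transport complex. SLC7A5 (LAT1), which imports large neutral amino acids, read 291 under DMSO, 55.2 under PHA665752, 486 after sc siRNA and 620 after MET siRNA. It was 5.27-fold lower under PHA665752 (log2 ratio -2.40, rank 141 of 14322 from the lowest, and -1.502 with normexp background correction), while it was 0.35 after MET siRNA and 0.74 in the control pair. SLC3A2 (4F2hc), the heavy chain that SLC7A5 and SLC7A11 both need, read 2279, 3832, 5019 and 5422 in the same order of arrays, so that it was 0.75 higher under PHA665752. SLC7A11 (xCT), the cystine importer, had the same order as SLC3A2, with 2097, 3670, 6115 and 6360.

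Both SLC3A2 and SLC7A11 were at least 2-fold higher in sc siRNA than in DMSO cells (log2 ratios 1.14 and 1.54) and little different after MET siRNA (0.11 and 0.057). SLC7A1, the cationic amino acid transporter, read 1014 under DMSO, 341 under PHA665752, 833 after sc siRNA and 712 after MET siRNA, a log2 ratio of -1.57 with the inhibitor and -0.23 with the knockdown. The glycine transporter SLC6A9 read 864, 1586, 1107 and 2762, higher with both (0.88 and 1.32). A second, dim SLC6A9 probe gave bounds of at least 1.74-fold under PHA665752 and at least 2.03-fold after MET siRNA.

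Of the tRNA synthetases, which charge tRNA with amino acids, WARS stood apart. WARS, for tryptophan, which is also known as an interferon-induced gene, read 6494 under DMSO, 7841 under PHA665752, 28283 after sc siRNA and 36761 after MET siRNA. It was 4.35-fold higher in sc siRNA than in DMSO cells (log2 ratio 2.12, rank 104 of 14274), and with the inhibitor and the knockdown it differed by 0.27 and 0.38. The interferon-induced eIF2 kinase PKR (EIF2AK2), named after its values were seen, had a log2 ratio of 1.85 in the control pair, and the part of transfection in these differences was not tested. AARS, for alanine, had log2 ratios of 0.13, 0.13 and 0.41 in the order inhibitor, knockdown and controls, and GARS, for glycine, -0.78, -0.26 and 0.048. The SARS spot, for serine, carried a background outlier mark on 3 arrays, and with the marks ignored its log2 ratios were -0.23, 0.031 and -0.11.

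CHAC1, a glutathione-degrading enzyme downstream of CHOP, had the same order of arrays as TRIB3 and ASNS. Its brighter probe (A_33_P3376971) read 336 under DMSO, 259 under PHA665752, 845 after sc siRNA and 1869 after MET siRNA, a log2 ratio of 1.33 in the control pair and a further 1.14 with the knockdown, against -0.38 with the inhibitor. A dimmer probe was well above background on 3 arrays and gave 0.79 after MET siRNA. It read 9.23 under DMSO, not well above background, and 18.8 under PHA665752, near background, a bound of at least 1.71-fold higher. The inhibitor ratio of the brighter probe was within the spread between probes, so neither probe gave CHAC1 a clear direction under PHA665752. The MET siRNA array was the highest for each probe.

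The remaining ATF4 targets act on growth signalling, hormone secretion and lipoprotein uptake. EIF4EBP1, the translation repressor 4E-BP1, read 26224 under DMSO, 10632 under PHA665752, 28116 after sc siRNA and 25710 after MET siRNA, a log2 ratio of -1.30 with the inhibitor alone. VLDLR, a lipoprotein receptor, read 2682, 1013, 2397 and 1772 in the same order, lower with both PHA665752 (-1.40) and MET siRNA (-0.44), and its second probe gave -1.51 and -0.56. SESN2 and DDIT4, inhibitors of mTORC1, differed by less than 2-fold in every pair, with log2 ratios of -0.34 and 0.22 under PHA665752 and -0.059 and 0.49 after MET siRNA. DDIT4 was spotted 10 times, with SDs between spots of 0.023 to 0.037, so its knockdown difference exceeded spot noise. Spot noise does not measure the error between arrays, and over the alternatives this difference went down to 0.19. STC2, a secreted glycoprotein, was lowest under DMSO (176) and between 260 and 289 on the other arrays.

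**Figure D3:**
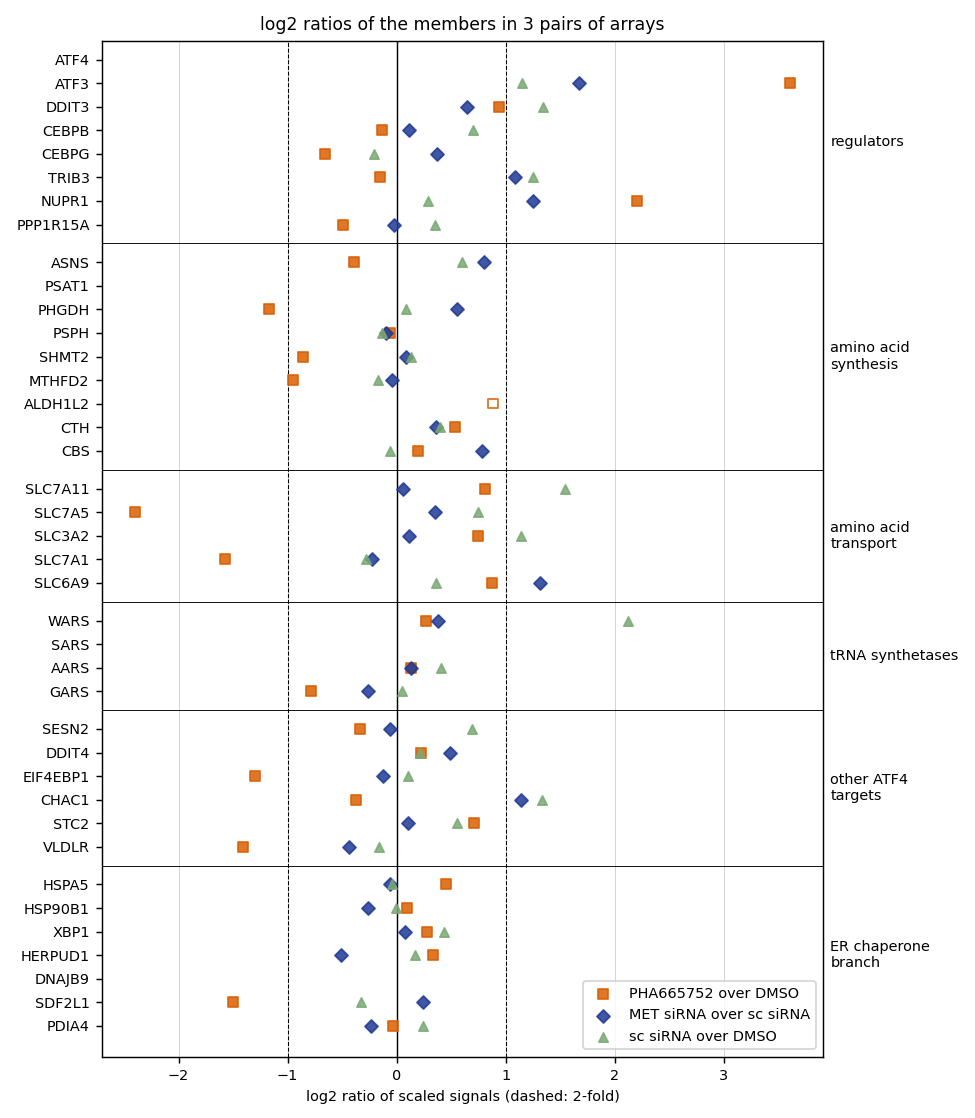
log2 ratio of scaled signals (horizontal axis, dashed lines at 2-fold) of each member for PHA665752 over DMSO (square), MET siRNA over sc siRNA (diamond) and sc siRNA over DMSO (triangle), 1 array against 1 array, grouped by role; the open square is a bound, and genes without a symbol had no usable ratio. The members past 2-fold to the left are all squares, led by SLC7A5 at -2.40, and those of the ER chaperone branch other than SDF2L1 lie inside the dashed lines.

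The ER chaperone branch was within 2-fold in all pairs with the exception of SDF2L1. HSPA5 (BiP), the central chaperone and sensor partner of the endoplasmic reticulum, read 2290 under DMSO, 3132 under PHA665752, 2230 after sc siRNA and 2133 after MET siRNA. It was highest on the inhibitor array, with a log2 ratio of 0.45 that ranked only 4285 of 14322 genes. HSP90B1 (GRP94) lay between 5788 and 7445, with a log2 ratio of 0.099 under PHA665752 and -0.26 after MET siRNA. PDIA4, a protein disulfide isomerase, lay between 2797 and 3393.

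XBP1, the factor activated by IRE1 through splicing, read 8275, 10041, 11213 and 11860 in the order DMSO, PHA665752, sc siRNA and MET siRNA. It was spotted 10 times with SDs of 0.044 to 0.046, and whether its probe tells spliced from unspliced RNA was not tested. HERPUD1, a component of ER-associated degradation, read 13243, 16656, 14907 and 10475, with 0.33 with the inhibitor and -0.51 with the knockdown (rank 583 of 13647 from the lowest). DNAJB9 (ERdj4), a co-chaperone of HSPA5, read 3017 under DMSO, 4679 under PHA665752 and 3677 after sc siRNA, a log2 ratio of 0.63 with the inhibitor, and with the outlier mark on the MET siRNA array ignored its knockdown ratio was 0.060. SDF2L1, a stress-inducible partner of DNAJB11, was the lowest of its branch under PHA665752. It read 34704 under DMSO, 12259 under PHA665752, 27680 after sc siRNA and 32821 after MET siRNA, a log2 ratio of -1.501 with the inhibitor and 0.25 with the knockdown.

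Set against each other, the amino acid branch and the ER chaperone branch both had medians near 0 in the inhibitor and knockdown pairs. Under PHA665752 the median log2 ratio was 0.034 over 16 genes of the amino acid branch and 0.19 over 6 genes of the ER chaperone branch, where that of all 14322 genes was 0.075. The amino acid branch ran from -2.40 (SLC7A5) to 0.88 (SLC6A9 and the ALDH1L2 bound), with 3 genes at least 2-fold lower, where 8.04% of all genes were, namely SLC7A5, SLC7A1 and, other than with normexp, PHGDH. With the 50th percentile scaling, which moved the median of all genes by -0.25, the inhibitor medians of both branches were below 0, at -0.21 and -0.057. After MET siRNA the medians were 0.13 over 15 genes and -0.15 over 6 genes, and that of all genes was -0.017. Of the amino acid branch, 11 of 15 were above 0 and of the ER chaperone branch 2 of 6. Of all genes, 47.0% were above 0. But with scaling to the median of probes well above background, which moved all genes by -0.30, both medians were below 0, at -0.17 and -0.45.

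In the control pair the medians were 0.36 and 0.085. The amino acid branch median minus the ER chaperone branch median, on which the scalings to a percentile or a median have no bearing, was -0.15 under PHA665752, 0.28 after MET siRNA and 0.27 in the control pair. Over the alternatives it kept its sign in each pair, from -0.34 to -0.056, from 0.18 to 0.50 and from 0.074 to 0.27. No replicate error was at hand for any of these differences.

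The inhibitor and knockdown pairs share no array, so their ratios can be set side by side. Over the 34 members with both ratios, Pearson's r was 0.51 and Spearman's rho 0.33, and over 13440 genes of all kinds r was 0.52 and rho 0.54. These are descriptions across genes, which are not independent replicates. Of the 34 members, 13 were above 0 in both, 9 below 0 in both and 12 opposite, so that 64.7% had the same sign against 69.6% of all genes. The plot of both ratios shows ATF3 and NUPR1 at the upper right, CHAC1, TRIB3, ASNS and PHGDH above 0 with the siRNA and below 0 with the inhibitor, and SLC7A1, VLDLR and EIF4EBP1 far to the left with knockdown ratios between -0.44 and -0.13.

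**Figure D4:**
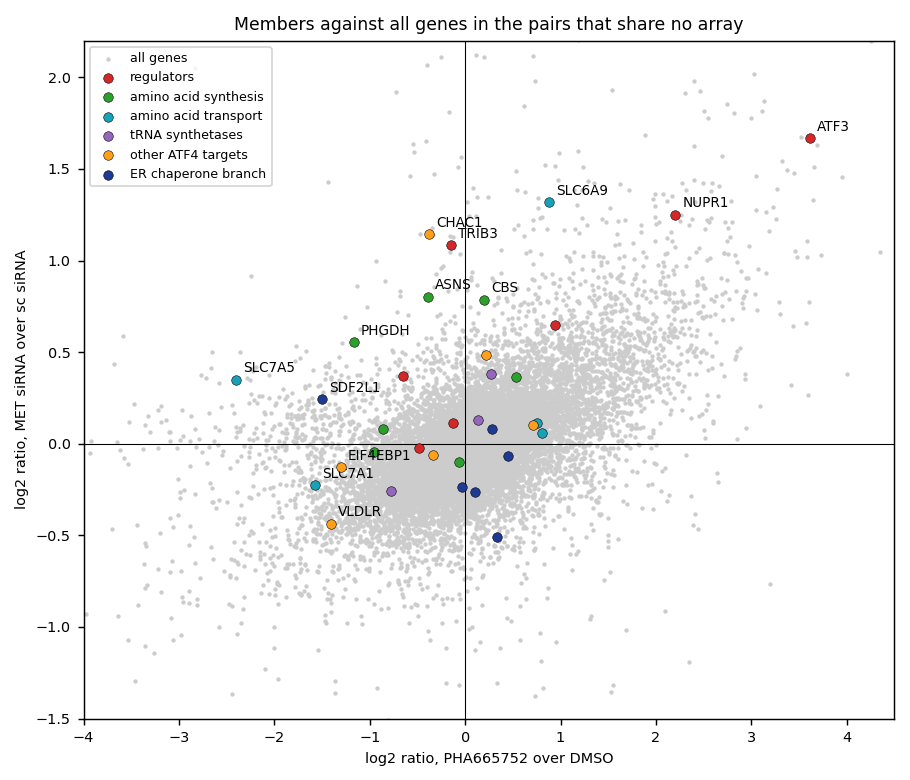
log2 ratio of MET siRNA over sc siRNA (vertical axis) against log2 ratio of PHA665752 over DMSO (horizontal axis) for all genes with both ratios (grey; a few lie outside the drawn range) and for the members, coloured by role, with names where a ratio is large. ATF3 and NUPR1 are high in both, whereas TRIB3 and CHAC1 are past 1 with the siRNA alone and SLC7A5 is at -2.40 with the inhibitor alone.

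Further genes of the same pathways were taken from lists of known pathway members. Of 21 genes for stress sensors and the eIF2 machinery, 19 had an inhibitor ratio, 2 were at least 2-fold higher under PHA665752 and 0 lower, and 0 of 18 passed 2-fold after MET siRNA, where over all genes the shares were 13.1% higher and 8.04% lower with the inhibitor, 2.04% and 0.696% with the knockdown. The 2 higher ones were OMA1, a mitochondrial stress protease (1.09), and ATF6B, a relative of ATF6 (1.03). PPP1R15B, the constitutive partner of the eIF2 phosphatase, was lower with both treatments (-0.60 and -0.75), and the eIF2B subunit EIF2B3 was lower under PHA665752 (-0.96). Other, dimmer EIF2B3 probes gave -1.22 and -1.28, past 2-fold, so the count of 0 lower holds for the probe that stood for the gene. Of 25 further ATF4 and CHOP targets, 24 had a ratio, with medians of 0.0066 under PHA665752 and 0.13 after MET siRNA. KLHL24, a ubiquitin ligase adaptor, read 319 under DMSO, 2634 under PHA665752, 396 after sc siRNA and 960 after MET siRNA (log2 ratios 3.05 and 1.28), and BBC3, the pro-apoptotic PUMA, had 1.75 and 0.87. The glutamine transporter SLC1A5 was lower with both (-0.87 and -0.41), and MTHFD1L, a mitochondrial folate enzyme, was lower under PHA665752 (-0.85).

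Of 16 further cytosolic tRNA synthetases, 15 had a ratio. Below 0 were 13 under PHA665752, where 6459 of all 14322 genes were, and 14 after MET siRNA, where 7231 of 13647 were. Under PHA665752, 2 were at least 2-fold lower and 0 higher, where 8.04% and 13.1% of all genes were. After MET siRNA 0 passed 2-fold, where 2.04% of all genes were higher and 0.696% lower. The medians were -0.59 under PHA665752 and -0.23 after MET siRNA. FARSB, for phenylalanine, was lowest in both, at -1.43 and -0.40, followed under PHA665752 by VARS1, for valine, at -1.17, while QARS1 for glutamine (0.27) and EPRS1 for glutamate and proline (0.067) were the highest under PHA665752. WARS, at 0.27 and 0.38, was above the median of this list in both pairs. Of 30 further ER chaperones and degradation factors, 1 was at least 2-fold higher under PHA665752, the lectin OS9 (1.02), and 0 were lower, where 13.1% and 8.04% of all genes were, and the median was -0.093. After MET siRNA 0 of the 30 passed 2-fold, where 2.04% of all genes were higher and 0.696% lower. Of the 30, 23 were below 0, where 7231 of 13647 genes were. The median was -0.17, close to the -0.15 of the ER chaperone branch. Among them EDEM2 (0.92) was high under PHA665752, HSPA13 (-0.93) and MANF (-0.85) were low, and after MET siRNA EDEM1 was highest (0.27) and EDEM3 lowest (-0.51).

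**Figure D5:**
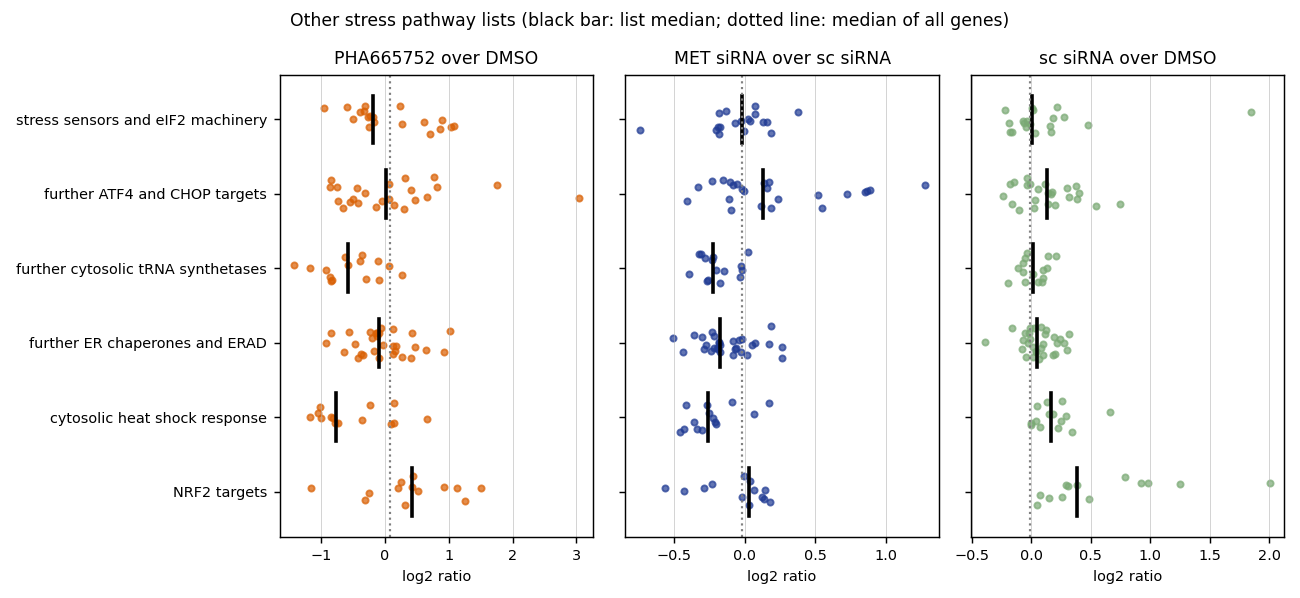
log2 ratio (horizontal axis) of each gene of 6 other stress lists in the 3 pairs, 1 point per gene, with the list median as a black bar and the median of all genes as a dotted line. Of the further tRNA synthetases, 14 of 15 lie to the left of the dotted line under PHA665752 and after MET siRNA, of the cytosolic heat shock genes 10 and 12 of 14 do, and the NRF2 targets lie to its right in the control pair.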

How the data were processed

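Total RNA of Hs746T cells was hybridised to 4 single-colour arrays on 1 slide. Scanner files from Feature Extraction 11.5.1.1 were deposited, in which the processed signal is a linear intensity after background subtraction and detrending, without normalization between arrays. Control spots and outliers (of the spot or its background) were dropped, spots of a probe were averaged in log2, and the 75th percentile of each array was subtracted. A probe was well above background when at least 0.5 of its spots carried that mark. Where only 1 array of a pair was, the ratio is a bound against the higher of the dim signal and the lowest signal well above background, and where neither was, no ratio was formed. Probes were named through RefSeq accessions (table of GRCh38.p14, used for names), 25771 of 34127, and the probe with the highest mean signal and a value on every array stood for its gene (18755 genes). Calls were ratios of at least 2-fold.

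Each comparison used 1 array per condition, so no test was made. All members are named, and from each other list the 2 highest and 2 lowest by the inhibitor ratio and the highest and lowest by the knockdown ratio, restricted to genes that all 4 arrays measured well above background. EIF2AK2, HSPE1 and HSPH1 were named after their values were seen. Some genes of the other lists are not reported here. The members and lists were chosen with earlier results of these data known. The alternatives were the 50th percentile, quantile normalization, scaling to the median of probes well above background, normexp (offset 50, on the median spot signal), no filter on dim probes, no bounds (both arrays of a pair well above background), the median ratio over each gene's probes, background outlier marks ignored, and the series matrix, which holds the same intensity. The ratio rules were tested on simulated data. Python 3.11.15, numpy 2.4.6, pandas 2.3.3, matplotlib 3.10.9, R 4.3.3 and limma 3.58.1 were used.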

Additional observations from a re-analysis of the deposited data

Results flagged for a closer look

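A few members had opposite signs in the inhibitor and knockdown pairs, with at least 2-fold in 1 pair and a value beyond the spread between probes in both. Opposite signs alone were seen in 12 of 34 members and in 4090 of 13440 genes of all kinds. The share of all genes that meet the full rule is not given here, so the members below have no background beside them. SLC7A5 had a log2 ratio of -2.40 under PHA665752 and 0.35 after MET siRNA. SDF2L1 had -1.501 and 0.25, and PHGDH had -1.17 and 0.56. With 1 array per condition the difference between the pairs was not tested. With scaling to the median of probes well above background, the knockdown ratio of SDF2L1 was -0.055, and those of SLC7A5 and PHGDH were 0.050 and 0.26. That scaling moved the median of all genes by -0.30 in this pair, to -0.31, so all 3 stayed above it.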

How the results depend on the processing

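No paired analysis was possible because each condition had 1 array. Of the counts and medians recomputed under 9 alternatives, 130 stayed within 1.5 times the count or within the spread between probes, and no called ratio changed sign. The 5 exceptions concerned MET siRNA. Of the values of single members, 887 stayed within the spread between probes and 39 did not, 34 of them with scaling to the median of probes well above background. These 34 are all the members with a knockdown ratio. That scaling moved all genes of the pair together by -0.30, more than its spread of 0.19, so they are 1 common shift and not separate changes. With scaling to the median of probes well above background, the members at least 2-fold higher numbered 2 in place of 5, the amino acid branch median was -0.17 and the ER chaperone branch median -0.45, and TRIB3, NUPR1 and CHAC1 were at 0.79, 0.95 and 0.84. The median of all genes was then -0.31, between the medians of the branches. Without a filter on dim probes, the amino acid branch median was 0.35 and its difference from the ER chaperone branch 0.50, because PSAT1 and ALDH1L2, at or near background, then entered. Taking the median ratio over each gene's probes, CHAC1 was at 0.97 after MET siRNA and turned to 0.20 under PHA665752. With normexp, PHGDH was at -0.64 under PHA665752. Members at least 2-fold lower under PHA665752 ranged from 5 to 9. The shares of all genes past 2-fold under the alternatives are not given here, so these recounts have no background beside them. Low signal limits PSAT1, ALDH1L2, PHGDH and SLC7A5, which were dim on at least 1 array, and a missing replicate limits all values.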

Other observations

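2 further stress programmes were followed beside the members. The cytosolic heat shock list, chaperones driven by HSF1, had 14 genes with a ratio, of which 4 were at least 2-fold lower under PHA665752 (8.04% of all genes were) and 0 higher (13.1% of all genes), with a median log2 ratio of -0.76 where that of all genes was 0.075. The lower ones were HSPA4L (-1.18), HSP90AA1 (-1.05), HSPE1 (-1.02) and, just past 2-fold, HSPH1, while HSPB1 (0.66) and HSPA1B (0.14) were the highest. After MET siRNA 12 of the 14 were below 0, where 7231 of 13647 genes were, with a median of -0.26 and BAG3 lowest at -0.46. In the control pair 12 of 14 were above 0, where 48.5% of all genes were, with a median of 0.16. HSPA1A and HSPA1B are near-identical copies, and their probes may not tell them apart.

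The NRF2 list, genes of antioxidant defence, had 13 genes with a ratio. All 13 were above 0 in sc siRNA over DMSO, where 48.5% of all genes were, with a median of 0.39. HMOX1 (2.01) and OSGIN1 (1.25) were past 2-fold there, where 2.89% of all genes were higher by that much. Under PHA665752, 3 of the 13 were at least 2-fold higher, HMOX1 (1.502) and NQO1 (1.25) among them, where 13.1% of all genes were. OSGIN1 (-1.16) was the 1 gene at least 2-fold lower, where 8.04% of all genes were. HMOX1 read 13271 under DMSO, 37587 under PHA665752, 53422 after sc siRNA and 36167 after MET siRNA, so that it was lower after MET siRNA than after sc siRNA (-0.56), and TKT was the highest of the list there (0.18). SLC7A11 of the amino acid transporters, which is also known as an NRF2 target, had the order DMSO, PHA665752, sc siRNA and MET siRNA from lowest to highest.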
